A study of Mus musculus with 6 samples.

Results

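The 37 genes described here mark T cells, natural killer (NK) cells with other cytotoxic lymphocytes, and B cells. They were taken from a list of symbols: 14 T cell genes, 12 NK and cytotoxic genes and 11 B cell genes. A gene entered through probe sets that the platform annotation pairs with that gene alone, and where there were several, the one whose mean across the 6 arrays was highest stood for it. In this way 36 of the 37 were measured, among 18193 genes measured in the same way, and Il2rg, the common gamma chain gene, was not analysed here. The samples were livers of 6 female mice, 8 weeks old and kept on chow, each on an array of its own. The control group was 3 mice of the inbred strain C57BL/6J, and the other group was 3 mice of B6.C3H-6T, a congenic strain with a C57BL/6J background and DNA of C3H on chromosome 6, which the study's title describes as low in serum IGF-1. The labels do not say where the C3H segment starts or ends, whether mice shared a litter, or whether blood was flushed from the liver. Differences are given as B6.C3H-6T minus C57BL/6J on the log2 scale, so that 1 unit is a doubling.

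T cells recognise antigen through a receptor that signals by the CD3 chains and the kinase ZAP-70. B cells do so through surface immunoglobulin that signals by CD79A and CD79B, while NK cells carry activating and inhibitory receptors and kill with perforin and granzymes. Healthy liver holds resident and passing lymphocytes in its sinusoids, with NK and NK-like T cells more prominent than in blood, amid a far larger mass of hepatocytes. Bulk RNA therefore contains little lymphocyte RNA, and in such a sample fewer lymphocytes and less RNA in each lymphocyte cannot be told apart.

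The defining genes of hepatocytes were present, as the tissue label has it. The plasma protein genes Alb, Apoa1 and Ttr had means of 14.53, 14.37 and 14.29 over 6 arrays, close to the top of the scale, which ended between 14.50 and 14.56 on each array. Array medians lay between 6.07 and 6.11.

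Most lymphocyte genes were not above background. RMA values carry no detection call, so the level of 80 probe sets for olfactory and vomeronasal receptor genes, which are genes of sensory neurons, served as the reference. The 95th percentile of their means over 6 arrays was 7.09, and 7 of the 36 lymphocyte genes exceeded it, against 8601 of all 18193 genes (47.3%). These 7 were the T cell genes Cd3e, Cd4 and Zap70, the NK and cytotoxic genes Ccl5 and Klrk1, and the B cell genes Ighm and Cd22. Just above the level were Klrk1 (mean 7.28), Cd4 (7.29) and Ccl5 (7.41), and just under it were Cd7 (6.86), Mzb1 (6.76) and Cd37 (6.76). At the 90th percentile of the sensory receptors, 6.45, 11 genes were above, and at their maximum, 8.0, only Zap70 and Ighm were. Probe sets differ in how strongly they bind, so this level separates genes only roughly, and a gene under it may still be transcribed in a few cells. The genes with more than 1 probe set were favoured by the choice of the highest mean, and there were 15 of them.

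**Figure D1:**
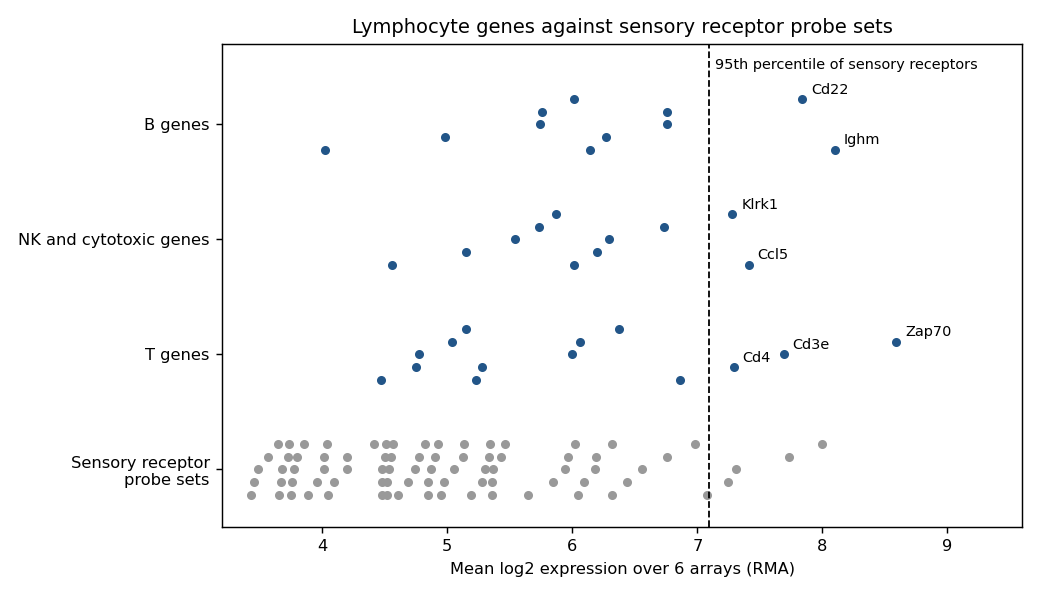
Mean log2 expression over 6 arrays of 36 lymphocyte genes (blue, by cell type) and of 80 sensory receptor probe sets (grey), each point 1 probe set with no meaning in its height within a row. The dashed line is the 95th percentile of the grey points, 7.09, and 7 lymphocyte genes lie to its right.

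The comparison of the strains asked whether lymphocyte transcripts in liver differ in the congenic mice. None of the 36 genes passed at an adjusted p under 0.05 (limma with Benjamini-Hochberg adjustment over all genes), where 13 of 18193 genes did (0.0715%). The smallest adjusted p of a lymphocyte gene was 0.316, and the linear fit without moderated variances, which called 0 of all 18193 genes, adds nothing to that count. That fit had 2 lymphocyte genes, Cd22 and Cd3e, at an unadjusted p under 0.05 (5.56% against 9.6% of all genes). With moderated variances, 2 were higher at an unadjusted p under 0.05, Cd5 and Cd6, where 6.34% of all genes were, and 1 was lower, Cd79b, where 5.80% of all genes were. Together these are 8.33% of the lymphocyte genes, below the 12.1% of all genes. The strains did not overlap at 5 lymphocyte genes (13.9%), again below the 17.8% of all genes: Cd3e, Cd5, Cd6 and Mzb1 were higher in every congenic mouse and Cd22 lower in every one. Neither count is a result about these genes as a list, since both shares are near those of all genes and the order of the non-overlap shares turns under other settings: 19.4% against 17.6% with the mean of a gene's probe sets, and 28.6% (2 of 7) against 20.1% among genes above background.

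Differences were small. Of the 36 genes 16 were higher and 20 lower in B6.C3H-6T, the median difference was -0.01 against 0.02 over all genes, and 33 differed by less than 0.2 in either direction. Over all genes 10203 were higher and 7990 lower, and 16171 of 18193 differed by less than 0.2, so small differences are no trait of this list. All genes above background leaned the other way, with 3950 higher, 4651 lower and a median of -0.01. The 95% intervals of the single differences had a median half-width of 0.19, and over all 36 genes they reached from -0.56 to 0.48, so that a doubling lay outside the interval of each measured gene. A missed threshold does not show that the strains are alike, and a gene at or under background has little signal of its own to compare. The sensory receptor genes themselves, 71 in number, had a median difference of 0.05, with 46 higher and 25 lower. At an unadjusted p under 0.05 in limma, 6 were higher and 1 lower, together 9.86% against 12.1% of all genes. The strains did not overlap at 9, all higher in the congenic mice (12.7% against 17.8% of all genes). After centring each array on its median 12 genes were higher and 24 lower, and after quantile normalization 14 and 22. The non-overlapping genes then became 5 lower (Cd22, Ccl5, Gzma, Cd3d and Ebf1) and 2 higher (Cd3e and Cd5) under either scaling, in place of 1 lower and 4 higher. Their share of 19.4% was then above that of all genes, 17.8% after centring and 17.4% after quantile normalization. Genes at an unadjusted p under 0.05 became 3 lower and 1 higher after centring, and 2 lower and 1 higher after quantile normalization.

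**Figure D2:**
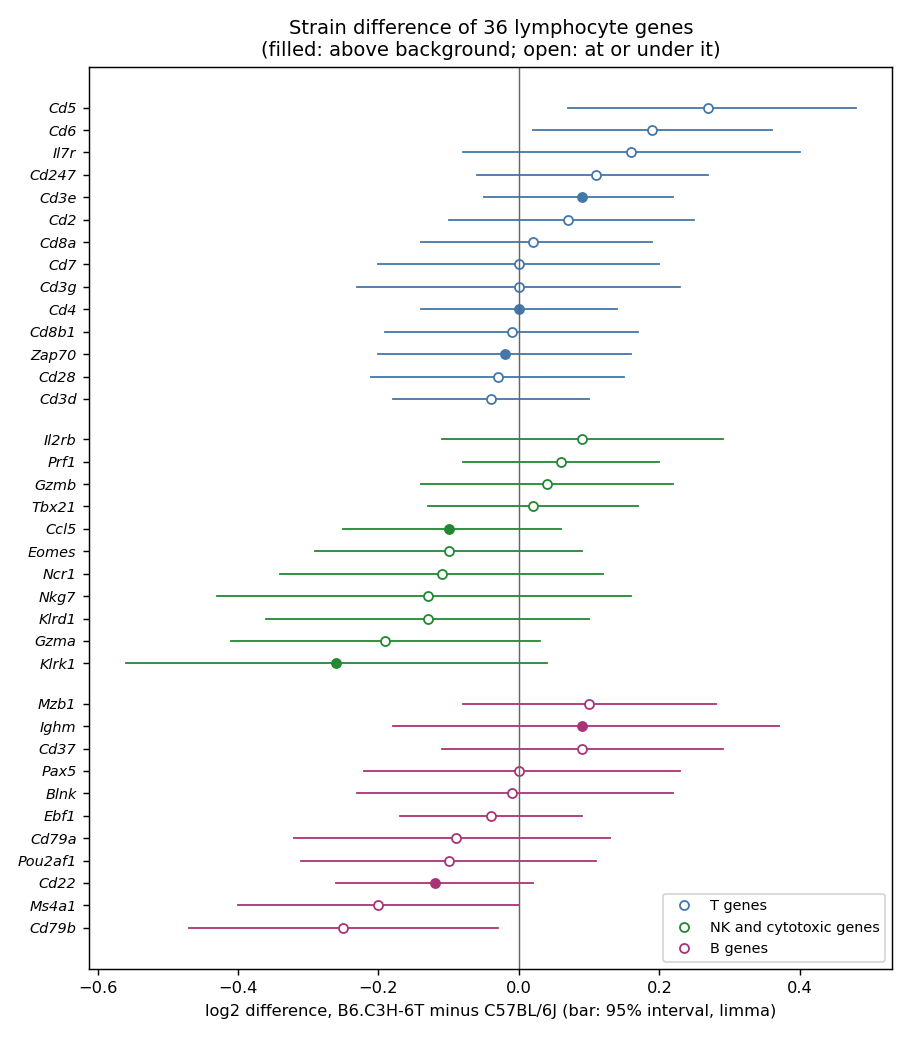
Log2 difference of each lymphocyte gene, B6.C3H-6T minus C57BL/6J (3 mice per strain), with its 95% interval from limma. Filled points are genes above background and open points those at or under it, and 33 of the 36 points lie within 0.2 of zero.

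Among T cell genes, the chains of the receptor complex came first. Cd3e encodes the epsilon chain of CD3 and gave 7.68, 7.59 and 7.67 in the C57BL/6J mice and 7.75, 7.74 and 7.72 in the congenic mice. All congenic values were above all control values, but by a narrow gap. The difference was 0.09 ± 0.06 (SE, 95% interval -0.05 to 0.22; limma adjusted p = 0.599). The other chains were under the background level. Cd3d, the delta chain gene, differed by -0.04 ± 0.06 and Cd3g, the gamma chain gene, by -0.00 ± 0.10. Cd247, which encodes the zeta chain that T and NK cells share, differed by 0.11 ± 0.07. Its 3 other probe sets differed by 0.01 to 0.12 and were also under background. Cd3e and the other 3 chains thus all differed by less than 2 standard errors.

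Zap70, the kinase gene downstream of CD3, was measured by 3 probe sets, all above background. The one representing the gene gave 8.67, 8.48 and 8.66 in C57BL/6J and 8.66, 8.60 and 8.48 in B6.C3H-6T, fully overlapping (-0.02 ± 0.08, adjusted p = 0.933). Another probe set gave 8.30, 8.57 and 8.41 against 8.68, 8.62 and 8.57, touching at the printed precision (0.20 ± 0.08, limma unadjusted p = 0.0367). The last one gave 7.79, 7.76 and 7.81 against 7.96, 7.83 and 7.83 (0.08 ± 0.07). At both of these other probe sets the strains did not overlap and the congenic mice were higher. The probe sets of this gene thus disagreed in direction, and quantile normalization moved the first to 0.01, so no direction is given for Zap70.

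The co-receptor genes lie on chromosome 6. Cd4, the co-receptor gene of helper T cells, gave 7.25, 7.31 and 7.30 in C57BL/6J and 7.27, 7.32 and 7.28 in B6.C3H-6T. These values overlapped throughout and the difference was 0.00 ± 0.06 (95% interval -0.14 to 0.14, adjusted p = 0.995), with the sign turned to -0.02 after centring of the arrays. Its second probe set, under background, differed by -0.01 ± 0.07. Cd8a and Cd8b1, the co-receptor genes of cytotoxic T cells, were under background and differed by 0.02 ± 0.07 and -0.01 ± 0.08. The 4 other probe sets of Cd8a ran from -0.05 to 0.08.

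Cd5 and Cd6 encode scavenger-type surface receptors that temper T cell receptor signalling, and they sit near each other on chromosome 19 with 1 gene, not protein-coding, between them. Cd5 gave 5.14, 5.01 and 5.14 in C57BL/6J and 5.48, 5.19 and 5.44 in B6.C3H-6T. The lowest congenic value, replicate 2, was close to the controls. The difference of 0.27 ± 0.09 (1.21-fold, 95% interval 0.07 to 0.48, unadjusted p = 0.0135) did not pass the adjustment (limma, adjusted p = 0.316). Cd6 gave 5.95, 5.95 and 5.82 against 6.18, 6.13 and 5.98, a difference of 0.19 ± 0.08 (1.14-fold, unadjusted p = 0.0330, limma adjusted p = 0.380). Here replicate 3 was the congenic mouse nearest to the controls. Both genes were under the background level and had 1 probe set each. Without control replicate 3, or without congenic replicate 1 or 2, Cd6 no longer reached an unadjusted p under 0.05, nor did Cd5 without congenic replicate 1.

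The remaining T cell genes were all under background. Cd2, an adhesion receptor gene, differed by 0.07 ± 0.08, Cd7, a surface glycoprotein gene of T and NK cells, by -0.00 ± 0.09, and the costimulatory receptor gene Cd28 by -0.03 ± 0.08. Il7r, the interleukin 7 receptor gene on which T cell survival depends, differed by 0.16 ± 0.11, with 5.57 in B6.C3H-6T replicate 2 and values of 5.12 to 5.37 on the other arrays. Its second probe set went the other way (-0.07 ± 0.07). As a group, 8 of the 14 T cell genes were higher and 6 lower, with a median of 0.01.

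Among NK and cytotoxic genes the lowest difference was that of Klrk1, which lies on chromosome 6. It encodes NKG2D, an activating receptor for stress ligands. Klrk1 gave 7.57, 7.32 and 7.34 in C57BL/6J and 7.24, 6.83 and 7.37 in B6.C3H-6T. Replicate 2 of the congenic strain was the lowest array, and its 6.83 was under the sensory receptors' 95th percentile on that array, 7.02. Replicate 3 lay within the control range, so the strains overlapped. The difference was -0.26 ± 0.13 (95% interval -0.56 to 0.04, limma adjusted p = 0.478), the lowest of the 36 genes. Leaving out congenic replicate 3 gave -0.37 and leaving out congenic replicate 2 gave -0.10.

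Ccl5 encodes a chemokine made by activated and memory cytotoxic lymphocytes, and it gave 7.52, 7.44 and 7.41 in C57BL/6J and 7.29, 7.37 and 7.43 in B6.C3H-6T. Again congenic replicate 3 fell inside the control range (-0.10 ± 0.07, adjusted p = 0.602). Other cytotoxic genes at or under background had the same mouse among or above the controls. The granzyme A gene Gzma gave 6.37, 6.38 and 6.41 against 5.98, 6.24 and 6.38 (-0.19 ± 0.10, unadjusted p = 0.0866). Nkg7, a gene of the cytotoxic granule membrane, gave 6.29, 6.31 and 6.21 against 6.14, 5.84 and 6.43 (-0.13 ± 0.13). Klrd1, the gene for CD94 on chromosome 6 and the partner of NKG2 receptors, gave 5.70, 5.84 and 5.84 against 5.46, 5.67 and 5.86 (-0.13 ± 0.10). In Klrk1, Ccl5, Gzma, Nkg7 and Klrd1 alike, congenic replicates 1 and 2 were below every control mouse and replicate 3 was not; these 5 genes were singled out after their values were seen.

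The other NK and cytotoxic genes differed by no more than 0.11 in either direction. Ncr1, the gene of the NK receptor NKp46, differed by -0.11 ± 0.10 and the lineage factor gene Eomes by -0.10 ± 0.08. The second lineage factor gene, Tbx21, differed by 0.02 ± 0.07. Among effector genes the granzyme B gene Gzmb differed by 0.04 ± 0.08 and the perforin gene Prf1 by 0.06 ± 0.06. Il2rb, the receptor subunit gene for interleukins 2 and 15, differed by 0.09 ± 0.09, while its second probe set differed by -0.13 ± 0.09. Of the 11 measured genes 4 were higher and 7 lower, with a median of -0.10, and none reached an unadjusted p under 0.05.

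**Figure D3:**
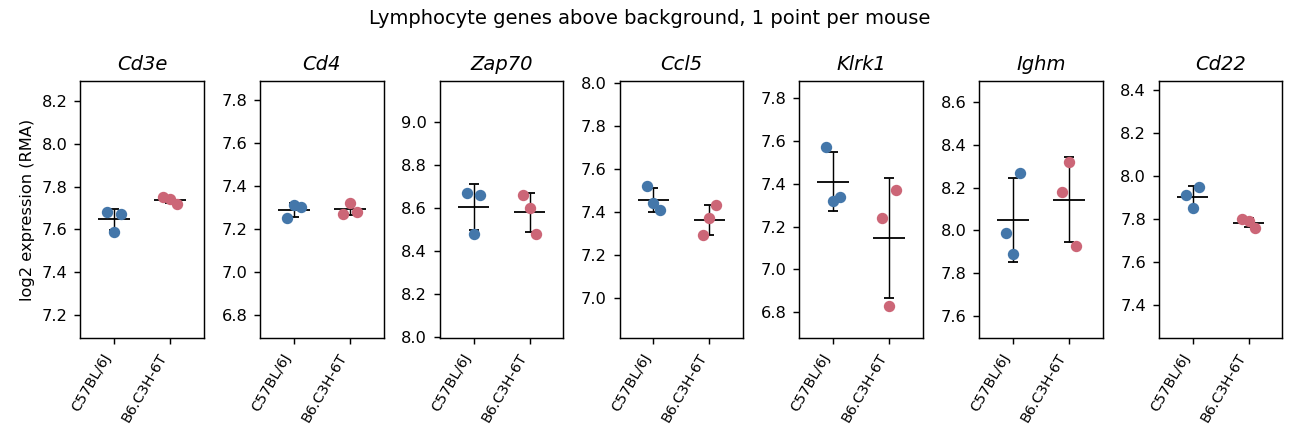
Log2 expression in each mouse of the 7 lymphocyte genes above background, with every axis spanning the same number of units. Lines and bars are the mean and SD of 3 mice; Cd3e and Cd22 are the 2 genes whose strains do not overlap.

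For B cells, the antigen receptor gave divergent values. Ighm, the immunoglobulin heavy chain mu gene, gave 7.99, 7.89 and 8.27 in C57BL/6J and 8.18, 8.32 and 7.93 in B6.C3H-6T. The strains overlapped, with the widest spread between control mice among the 7 genes above background (SD 0.19), and the difference was 0.09 ± 0.12 (adjusted p = 0.789). Of its 10 other probe sets 3 were above background, and together they ran from -0.14 to 0.20, with 8 in the higher direction. Among the 3 above background, 1 was higher in every congenic mouse, with 7.55, 7.60 and 7.54 against 7.82, 7.80 and 7.66 (0.20 ± 0.07, limma unadjusted p = 0.0185). A probe set under background was so too, with 5.37, 5.49 and 5.41 against 5.57, 5.65 and 5.50 (0.15 ± 0.07, limma unadjusted p = 0.058). A further 4 probe sets are shared by Ighm with other immunoglobulin genes and were not used. Immunoglobulin genes are near copies of each other, so these values may mix several heavy chains.

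Cd79a and Cd79b encode the signalling pair of the B cell receptor, and both were under background. Cd79b gave 6.47, 6.51 and 6.20 in C57BL/6J and 6.27, 6.04 and 6.11 in B6.C3H-6T, with overlap through control replicate 3. Its difference of -0.25 ± 0.10 (1.19-fold, 95% interval -0.47 to -0.03, unadjusted p = 0.0315) did not pass (adjusted p = 0.378). It was no longer at an unadjusted p under 0.05 without control replicate 1 or 2, or without congenic replicate 2 or 3. Its partner Cd79a gave 5.81, 5.96 and 5.59 against 5.80, 5.64 and 5.64, a difference of -0.09 ± 0.10. The CD20 gene Ms4a1 gave 6.28, 6.13 and 6.31 against 6.03, 5.91 and 6.20 with overlap (-0.20 ± 0.09, unadjusted p = 0.0543), and its second probe set differed by -0.13 ± 0.06, without overlap. Each of these 3 genes thus had its higher mean in C57BL/6J.

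Cd22, an inhibitory co-receptor gene of B cells, was above background on 1 of its 2 probe sets. That one gave 7.91, 7.85 and 7.95 in C57BL/6J and 7.80, 7.79 and 7.76 in B6.C3H-6T, lower in every congenic mouse by a difference of -0.12 ± 0.06 (95% interval -0.26 to 0.02, limma adjusted p = 0.476). The other, under background, had every congenic value at or above the controls (0.08 ± 0.06). The 2 probe sets of Cd22 therefore disagreed in direction.

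The plasma cell gene Mzb1, which encodes an endoplasmic reticulum protein of antibody secretion, gave 6.77, 6.55 and 6.80 against 6.80, 6.82 and 6.81. Its strains did not overlap but touch at the printed precision, and the difference was 0.10 ± 0.08 (adjusted p = 0.635). The B cell lineage factor genes Pax5, Ebf1 and Pou2af1 differed by 0.00 ± 0.10, -0.04 ± 0.06 and -0.10 ± 0.09. The adaptor gene Blnk, which links the B cell receptor to its kinases, differed by -0.01 ± 0.10 and the leukocyte tetraspanin gene Cd37 by 0.09 ± 0.09. Of the 11 B cell genes 4 were higher and 7 lower, with a median of -0.04.

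Over the 36 genes, 33 further probe sets of 15 genes could be set beside the representative ones. Of these 21 had the direction of the representative probe set, 2 reached an unadjusted p under 0.05 and 0 passed the adjustment over all probe sets in limma. The same shares over all probe sets were not counted. Over all genes, each by its representative probe set, 12.1% reached that unadjusted p and 12 of 18193 passed that adjustment.

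Mean levels by mouse differed little between strains. The 14 T cell genes averaged 5.92 to 5.96 in C57BL/6J and 5.97 to 6.04 in B6.C3H-6T. The 11 NK and cytotoxic genes averaged 6.07 to 6.15 and 5.96 to 6.13, and the 11 B cell genes 6.20 to 6.29 and 6.16 to 6.21. T cell means thus lay slightly higher in the congenic mice without overlap, while the other groups overlapped. This depended on scale: minus each array's median, T cell means ran from -0.17 to -0.10 and from -0.14 to -0.07 and overlapped, while B cell means ran from 0.12 to 0.20 and from 0.06 to 0.10 and did not. B6.C3H-6T replicate 2 held the lowest value for 13 of the 36 genes, among them 5 of the NK and cytotoxic genes and 5 of the B cell genes. C57BL/6J replicate 2 held the lowest value for 9. The same counts over all genes were not made.

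**Figure D4:**
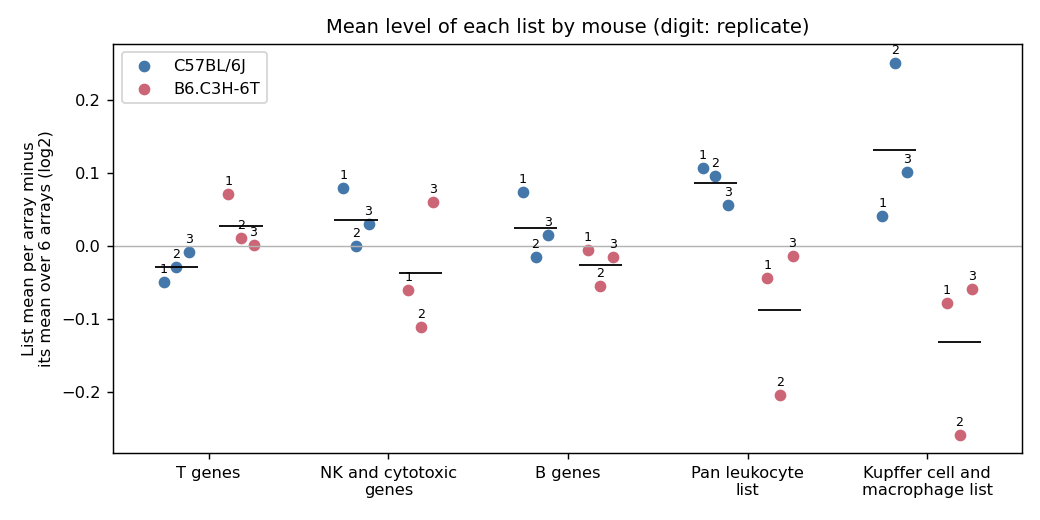
Mean log2 level of each gene list on each array, minus the list's mean over 6 arrays, with the digit naming the replicate and the line the mean of 3 mice. The T cell list is slightly higher in every congenic mouse, and the NK and cytotoxic and the B cell lists overlap between strains. The pan leukocyte and Kupffer cell lists are lower in every congenic mouse and lowest in B6.C3H-6T replicate 2. Values are not centred on array medians.

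Leaving out single mice moved the counts. Genes at an unadjusted p under 0.05 numbered 1 when congenic replicate 1 was left out (Cd79b, 2.78% against 10.8% of all genes). They numbered 1 when congenic replicate 2 was (Cd5, 2.78% against 7.27%). Without congenic replicate 3 they numbered 8 (5 lower and 3 higher, 22.2% against 13.2%), with Klrk1, Gzma, Nkg7 and Klrd1 among the lower. Those named genes were singled out above because replicate 3 was not below the controls. Their smaller p without that mouse therefore follows from the choice and adds no support. Non-overlapping genes numbered 11, 7 and 10 when control replicate 1, 2 or 3 was left out. They numbered 9, 8 and 13 when congenic replicate 1, 2 or 3 was. With 1 array fewer, groups overlap less often by construction. The shares stayed near those of all genes except without control replicate 2, where the share was well below. For the control mice they were 30.6% against 27.6%, 19.4% against 30.7% and 27.8% against 26.9%. For the congenic mice they were 25.0% against 28.2%, 22.2% against 24.5% and 36.1% against 32.0%. In each of these fits 0 lymphocyte genes were called in limma.

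Because B6.C3H-6T carries C3H DNA on chromosome 6, genes of that chromosome were looked at separately. The lymphocyte genes there are Cd4, Cd8a, Cd8b1, Klrd1 and Klrk1, of which 2 were higher and 3 lower, with a median of -0.01 against 0.01 over all 992 genes of the chromosome. The 31 genes elsewhere had a median of 0.00. A further 21 lymphocyte genes of chromosome 6 from the companion lists below had 11 higher and 10 lower, and 0 called in limma, where 6 of the 992 were. At an unadjusted p under 0.05 there was 1 (4.76% against 14.8% of the chromosome's genes), and the strains did not overlap at 3 (14.3% against 20.5%). Those with the smallest p were Gimap1 (-0.18 ± 0.08) and Gimap4 (-0.21 ± 0.09), small GTPase genes of lymphocyte survival, the NK receptor genes Klra8 (0.18 ± 0.09), Klre1 (0.20 ± 0.11) and Klra2 (-0.14 ± 0.07), and the inhibitory T cell receptor gene Lag3 (0.14 ± 0.09). The NK receptor cluster of this chromosome differs in sequence between mouse strains, and whether C3H bases lie under these probes was not tested.

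Companion lists of the same cells gave 0 called genes in limma. Other T cell genes had 18 of 26 measured members higher and a median of 0.04. Over all genes 10203 of 18193 were higher with a median of 0.02, and of the sensory receptor genes 46 of 71 were. Against 12.1% of all genes, 0 of these 26 T cell genes were at an unadjusted p under 0.05, and 1 was above background. Their smallest p belonged to Txk (0.12 ± 0.06), a kinase gene of T cells, Cd96 (0.13 ± 0.08), Lag3 and the adaptor gene Lat (0.09 ± 0.07). Other NK cell genes had 14 of 23 higher and a median of 0.02, with Cd160 (0.19 ± 0.07) and the granzyme M gene Gzmm (0.17 ± 0.07) at an unadjusted p under 0.05, both higher. Cd160 and Gzmm made up 8.7% of the list, against 12.1% of all genes at that threshold. The median over all genes was also 0.02, and 2 of these 23 genes were above background.

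Other B and plasma cell genes, 4 of 26 above background, had 12 of 26 higher and 14 lower, with a median of -0.01. At an unadjusted p under 0.05 there were 5, 3 of them lower (19.2% against 12.1% of all genes). The lower ones included Cd180 (-0.22 ± 0.06), a toll-like receptor homologue gene of B cells and macrophages, and the adaptor gene Bank1 (-0.31 ± 0.12). The higher ones were Vpreb3 (0.19 ± 0.06) and the syndecan gene Sdc1 (0.22 ± 0.06), which hepatocytes also express. Members of the GIMAP family, all on chromosome 6, were split 4 and 4.

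Signalling lists reached further beyond lymphocytes. Antigen receptor signalling had 14 of 31 higher and 17 lower. The ubiquitin ligase gene Cbl (-0.32 ± 0.10) was lower and the exchange factor gene Vav1 (0.18 ± 0.07) higher at an unadjusted p under 0.05. They made up 6.45% of the list, against 12.1% of all genes. Lcp2, the SLP-76 adaptor gene, differed by -0.21 ± 0.09 and Pik3ap1, an adaptor gene of B cells and macrophages, by -0.16 ± 0.08. Cytokine signalling through the common gamma chain had 13 of 24 higher, with 3 higher and 1 lower at an unadjusted p under 0.05 (16.7%). Stat5a differed by -0.61 ± 0.13 and the feedback inhibitor gene Cish by 0.55 ± 0.15, 2 genes that hepatocytes use under growth hormone. The survival gene Bcl2 differed by 0.33 ± 0.11 and Il4 by 0.18 ± 0.06. Chemokine and adhesion genes had 16 of 26 lower, with 5 lower and 1 higher at an unadjusted p under 0.05 (23.1%). The lower ones included Cd44 (-0.48 ± 0.12), a hyaluronan receptor gene, and the leukocyte integrin genes Itgb2 (-0.39 ± 0.12) and Itgal (-0.34 ± 0.11), and the higher one was the chemokine gene Ccl17 (0.26 ± 0.07). Adjusted p over these lists was at least 0.196.

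Most genes that all leukocytes share had lower means in the congenic mice, though 0 were called in limma. The list of 16 pan leukocyte genes had 10 above background. Of all 16, 13 were lower, with a median of -0.17. At an unadjusted p under 0.05, 7 were lower and 1 higher, together 50% against 12.1% of all genes. The list averaged 7.67 to 7.72 in C57BL/6J and 7.41 to 7.60 in B6.C3H-6T. Cd48, a ligand gene of the signalling lymphocyte family, gave 6.25, 6.35 and 6.31 against 5.90, 5.82 and 5.93 (-0.42 ± 0.06, limma adjusted p = 0.0950). Its mean of 6.09 was under background. The CD45 gene Ptprc, above background, gave 8.25, 8.27 and 8.27 against 7.78, 7.55 and 8.06 (-0.47 ± 0.11, limma adjusted p = 0.230). The Kupffer cell and macrophage list also had 0 called, with 16 of 16 genes lower and a median of -0.25. At an unadjusted p under 0.05 there were 10 (62.5%). This list averaged 9.33 to 9.54 in C57BL/6J and 9.03 to 9.23 in B6.C3H-6T. Its leading genes were Timd4 (-0.47 ± 0.11), C1qb (-0.27 ± 0.07) and C1qc (-0.31 ± 0.09). B6.C3H-6T replicate 2, lowest for 13 of the 36 lymphocyte genes, was lowest for 13 of these 16 and for 12 of the 16 pan leukocyte genes. It was also lowest for 8 of 12 sinusoidal endothelial genes and for 1 of 10 hepatocyte genes. How often this array was lowest over all genes was not tested. The difference between the lymphocyte and macrophage lists was itself not tested, and the part that macrophages have in the pan leukocyte values was not tested.

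Other cell types were followed by fixed marker lists, with 0 genes called in limma in each. Among dendritic cell genes 6 of 9 were lower, with 2 at an unadjusted p under 0.05 (22.2% against 12.1% of all genes). These were the MHC class II genes H2-Aa (-0.72 ± 0.15) and Cd74 (-0.58 ± 0.13), which B cells and macrophages also use. Neutrophil genes were higher in 7 of 11 cases (median 0.11), erythroid genes in 5 of 7 (0.16) and platelet genes in 5 of 5 (0.07). Sinusoidal endothelial genes were lower in 9 of 12 cases (-0.07) and stellate and stromal genes in 5 of 10 (0.01 as median). Hepatocyte genes were higher in 8 of 10 cases (0.02), cholangiocyte genes in 5 of 5 (0.04), cell cycle genes in 5 of 9 (0.04) and genes of spleen and lymph node stroma in 3 of 5 (0.01). Over all genes 10203 of 18193 were higher, with a median of 0.02. The platelet differences started at 0.01 and the cholangiocyte ones at 0.00. Above background were 1 of 11 neutrophil, 4 of 7 erythroid and 1 of 5 platelet genes. So were 1 of 5 cholangiocyte, 1 of 9 cell cycle and 1 of 5 spleen and lymph node stroma genes. The part of blood or other cells in the lymphocyte values was not tested.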

How the data were processed

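Liver RNA was hybridised to Affymetrix arrays, 1 mouse each, after oligo(dT) priming, which reads mainly the 3' end of transcripts. The deposited values are log2 expression per probe set, per the submitters' processing notes made with RMA and the package affy, after image quantification with GeneChip Operating Software 1.2 per the labels. For other steps and versions: not given in the sources used here. Array number, 3 mice per strain, limits the precision, and replicate numbers follow accession order.

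Of 45101 probe sets, 64 controls were left out. Of 45037 tested, 34945 had 1 gene, 932 several and 9160 none listed in the platform annotation. Of 18193 genes, 18031 were found in a RefSeq table of assembly GRCm38.p6, used for names, chromosomes and gene order. The fit used R 4.3.3 and limma 3.58.1 (lmFit and eBayes with no covariate or filter) on all probe sets, adjusted by Benjamini-Hochberg over all genes, each represented by its probe set of highest mean; the fit was tested on simulated data. List counts are descriptions without a test. Lists were written from general knowledge: 7 of related lymphocyte genes and 12 of cell types. The members and lists were chosen with earlier results of these data known. The rule for named genes took all members, the 4 genes of smallest p in each related list, 6 chromosome 6 genes and up to 3 per cell type. List genes with no single-gene probe set were not analysed here.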

Additional observations from a re-analysis of the deposited data

How the results depend on the processing

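Over 15 alternatives (adjustment over all probe sets, other probe set choices, scalings, moderation, the dim-gene filter and each array left out), 0 lymphocyte genes were called in limma, and the smallest adjusted p of any of them was 0.267. The median difference of the lymphocyte genes stayed within the spread between mice, from -0.032 after centring to 0.007, and from -0.031 to 0.007 with 1 array left out. Among all genes, 13 were called, 0 without moderation and 6 to 15 with 1 array left out (6 without C57BL/6J replicate 2 or 3, and 7 without B6.C3H-6T replicate 2). The 3 lymphocyte genes at an unadjusted p under 0.05 became 0 and the 5 non-overlapping ones became 2 when only genes above background were tested, which leaves 7 of them (0 against 15% and 28.6% against 20.1% of all genes above background). With 1 array left out these counts ran from 1 to 8 and from 7 to 13. The 7 genes above background became 11 at the 90th percentile and 2 at the maximum of the sensory receptors. They stayed 7 against the highest Y-linked gene, and were 6, without Klrk1, when required on all 6 arrays. That Y-linked gene, Sry, had a mean of 7.23 in these female livers, itself above the 7.09 level. Klrk1 (7.28) and Cd4 (7.29) were only just above Sry. Among the 7, differences turned sign for Zap70, from -0.02 to 0.09 with the mean of its probe sets, 0.08 with the probe set of median p and 0.01 after quantile normalization (-0.09 to 0.03 with 1 array left out). They did so for Cd4, from 0.00 to -0.00 with the mean of probe sets, -0.01 with the probe set of median p and -0.02 after centring (-0.02 to 0.02 with 1 array left out). The cause was not tested. No paired analysis was possible because the labels give the mice of the strains no shared number. Most lymphocyte genes lie at or under the background level, which limits what a difference there can show.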
